A study of Tribolium castaneum with 183 samples.

Results

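Drought was tested in females of the red flour beetle *Tribolium castaneum* that lived at 37°C, by comparing 43 Hot-Dry females (37°C, 30% relative humidity) with 45 Hot females (37°C, 70% relative humidity). These 88 females were chosen by the condition letters at the end of each column name. The series also holds 47 Control and 48 Dry females, which lived at 33°C with 70% and 30% humidity and serve here only to set drought at 33°C beside drought at 37°C. All females belonged to the Cro1 strain, which came from the wild and had been kept in the laboratory under Control conditions. They came from 12 full-sib families, given by the number before the hyphen in a female's name, with 3 or 4 females per family in Hot and in Hot-Dry. Each breeding pair's eggs were spread over vials that went to the 4 conditions, so the parents lived in Control and the sisters of 1 family in 1 condition shared a vial. The family and condition, and not the single female, is therefore the independent unit. Counts summed over it are given beside the results for single females, but single genes at 33°C are given for single females only. The labels describe reproducing females with an age of 8 weeks, while the study's methods lead to a later age. The RNA came from whole bodies, in which fewer cells of a type and less RNA per cell cannot be told apart.

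Beetles of dry stored products have hardly any free water to drink. Water is lost through the cuticle, through respiration and with the faeces, and it is gained from food and from the oxidation of nutrients. The Malpighian tubules and the hindgut move ions, above all potassium, sodium and chloride, across their epithelia, and water follows, so that ion pumps, channels and transporters set how much water is excreted or taken back. Gut enzymes such as glycoside hydrolases and peptidases release the sugars and amino acids from flour. Reproduction adds its own demand, because the fat body of a laying female makes large amounts of vitellogenin, the yolk protein precursor.

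A library held 4873334 to 14713407 counts in Hot (median 8652659) and 6382307 to 13690047 in Hot-Dry (median 9057850). Levels are given as cpm, the count scaled to library size, after TMM normalization, and 3 counts at the median size correspond to 0.345 cpm. No pair of libraries was identical, and log2 cpm of any pair correlated with r between 0.885 and 0.984. Families, more than humidity, separated the 88 females. Family accounted for 63.6% of the variance of the first principal component and humidity for 0.467%. On the second component the shares were 31.8% and 3.58%, and on the third 39.3% and 12.7%. Family has more levels than humidity, which raises its share. Hot-Dry females 293-4, 638-4 and 1077-1 stood apart on the second component, where they took the 3 highest places (45.3 or more, against 33.6 or less in the other females). The same females had the lowest shares of counts on the vitellogenin genes, from 0.0756% to 0.375%, whereas the next Hot-Dry female had 1.51%. Hot female 863-1 came next to them with 0.620% and was kept where the 3 were left out, so 4 females at 37°C had under 1% although the labels call all females reproducing. For several results that turn on these females, values without them are given as well.

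Of 12113 genes tested, 276 (2.28%) were differentially expressed (DE) between Hot-Dry and Hot at an adjusted p of 0.05 or less, with 120 (0.991%) up-regulated and 156 (1.29%) down-regulated in Hot-Dry. Most of these changes were small. The median log2 fold change was 0.40 among the up-regulated and -0.44 among the down-regulated genes, and 51 genes changed by more than 1 (17 up, 34 down). Over all tested genes the median was 0.0026. Without the females that stood apart there were 268 DE genes, 203 of them shared with the 276, and the split moved to 81 up-regulated and 187 down-regulated, or from 43.5% to 30.2% up-regulated. Without family 710 there were 154 DE genes and without family 638 there were 168.

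The count depended on how females of 1 family were treated. Sisters resembled each other, and a block for the 48 numbers that recur in the conditions gave 437 DE genes (3.61%), of which 252 were among the 276. A block for the 12 families gave 547 (4.52%), of which 269 were among the 276. When the counts of sisters in a condition were summed and family was a block, 46 genes (0.38%) were DE, 25 up-regulated (0.206%) and 21 down-regulated (0.173%). Of these 46, 45 were also DE for single females. All 276 genes had the same direction in the summed fit. The change had its fitted direction in at least 11 of the 12 families for 112 of the 276 genes and in all 12 for 42 genes, while 38 genes followed it in fewer than 9 families. Of all tested genes, 2.12% had their fitted direction in at least 11 families.

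**Figure D1:**
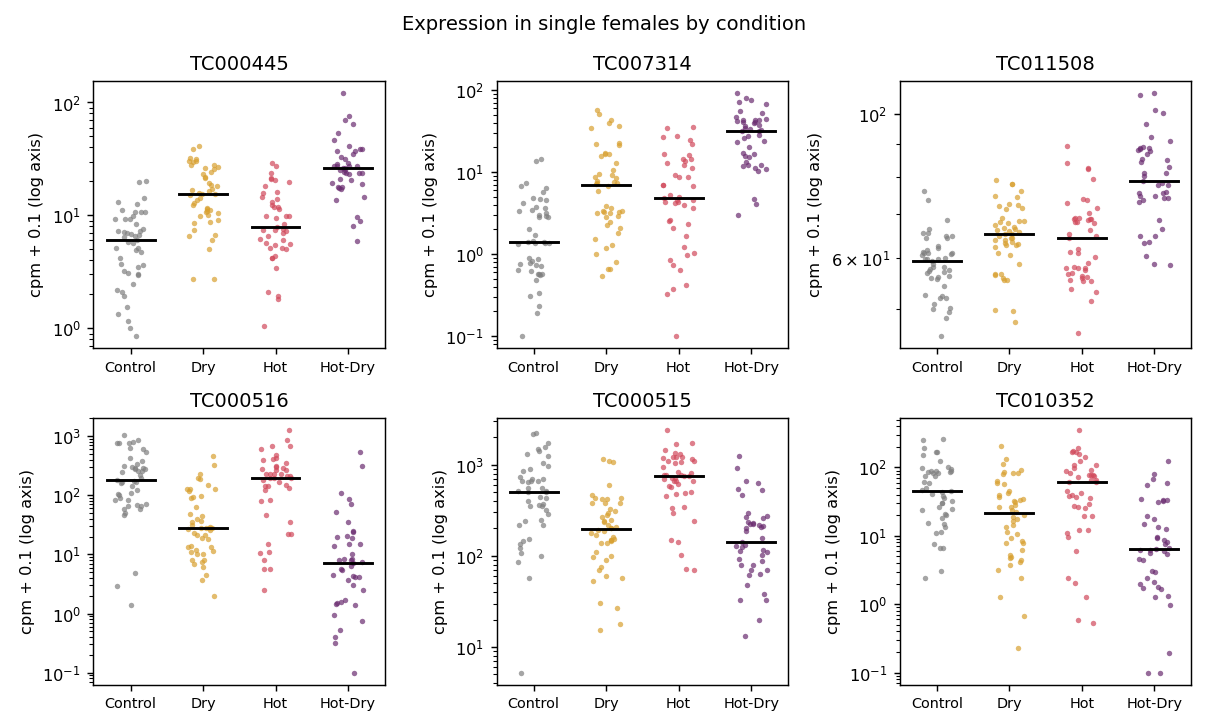
Expression of 6 genes in single females of the 4 conditions, as cpm + 0.1 on a log axis (1 point per female, black line at the median). TC000445, TC007314 and TC011508 were higher and TC000516, TC000515 and TC010352 lower in Hot-Dry than in Hot, and the clouds of females overlapped in every case.

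TC000445 had the smallest p-value of all genes. Its level in Hot females ran from 0.950 to 29.2 cpm with a median of 7.75, and in Hot-Dry females from 5.85 to 121 cpm with a median of 26.0. Thus 42 of 43 Hot-Dry females lay above the median of Hot, although the groups overlapped. The log2 fold change was 1.57 ± 0.20 (SE), a rise of 2.97-fold (adjusted p = 1.9e-09, and 0.0004 with summed counts), and all 12 families rose, by between 0.87 and 3.53. At 33°C the same gene rose by 1.38 ± 0.19 from Control to Dry, also in 12 families (adjusted p = 2.3e-07 for single females). The study's lists used here give no name or function for TC000445.

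Among genes averaging 5 cpm or more, TC007314 had the largest rise of those that rose in all families. Hot females had 0 to 35.6 cpm (median 4.78) and Hot-Dry females 2.89 to 91.3 cpm (median 31.9). Of the Hot-Dry females, 18 exceeded the highest Hot female, and 15 Hot females lay below the lowest Hot-Dry female. The log2 fold change of 1.94 ± 0.31 was a rise of 3.83-fold (adjusted p = 4.5e-06, and 0.00024 with summed counts). All 12 families rose in TC007314, by as little as 0.15 and as much as 4.28. Drought at 33°C raised it by 2.14 ± 0.32 (adjusted p = 1.7e-06 for single females).

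TC007312, whose identifier is close to that of TC007314, rose as well, at a far lower level. It was listed at 0 counts in 24 of 45 Hot females and in 4 of 43 Hot-Dry females, and its highest values were 2.05 and 10.1 cpm. The fitted log2 fold change of 2.37 ± 0.34 (adjusted p = 2.0e-07, and 0.00018 with summed counts) rests on few counts in Hot and depends on how low counts are treated. In this gene too, 12 of 12 families were higher in Hot-Dry. Whether reads of near-identical genes were shared between such pairs is uncertain, since the treatment of reads with several matches is not stated.

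TC011508 changed little in size but in nearly every family. Its level was 45.7 to 89.1 cpm in Hot (median 64.2) and 58.4 to 108 cpm in Hot-Dry (median 78.6). The rise was 1.24-fold, a log2 fold change of 0.32 ± 0.04, with the second smallest p-value (adjusted p = 3.3e-09, and 0.0016 with summed counts). In Hot-Dry 38 of 43 females lay above the Hot median, and 11 of 12 families rose.

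TC011661 and TC009418 were also up-regulated in all 12 families, at low levels. TC011661 had a median of 1.65 cpm in Hot (0.202 to 3.24) and 2.82 cpm in Hot-Dry (0.776 to 10.0), a log2 fold change of 1.13 ± 0.17 (adjusted p = 9.4e-07, and 0.0016 with summed counts). TC004032 was abundant, with a median of 54.4 cpm in Hot (29.1 to 136) and 86.4 cpm in Hot-Dry (51.4 to 132), and it rose in 11 families by 0.56 ± 0.09 on the log2 scale (adjusted p = 9.8e-06, and 0.0068 with summed counts). In TC004032, 41 of 43 Hot-Dry females lay above the Hot median. None of these genes has a function in the study's lists used here.

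**Figure D2:**
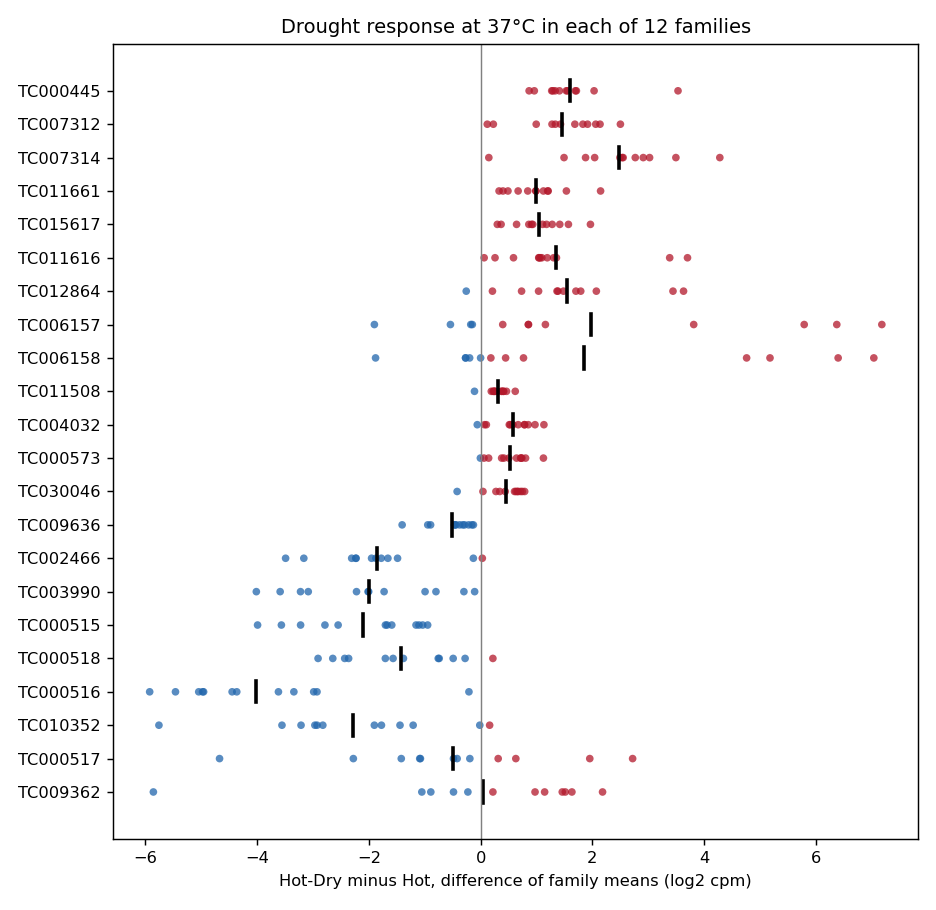
Difference between the Hot-Dry and the Hot mean of log2 cpm in each of the 12 families, for 22 genes described in the text (red points above 0, blue points below 0, black bar at the mean over families). All 12 points of TC000445, TC007314, TC000515 and TC000516 lie on 1 side of 0, whereas TC006157 and TC006158 combine families with rises above 4 with families near or below 0.

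Of the 276 DE genes, 64 carry a function in the study's lists of enriched function terms as read here, and 212 do not. The study's Dry females, which share no library with Hot or Hot-Dry, yielded a list of 5 active ion transmembrane transporters, proteins that use energy or a second gradient to carry ions across membranes. All 5 were higher in Hot-Dry than in Hot, and 2 of 5 were DE (2.28% of all genes were). Their median log2 fold change was 0.14. In the fit used here all 5 were also DE upward from Control to Dry. Of the 98 genes DE between Control and Dry, 96 had the same sign from Hot to Hot-Dry, and 37.8% were DE there too. The shared direction was therefore general among such genes and not particular to ion transporters. TC000573, a member of this list annotated with both anion and cation transport, had 14.9 to 60.5 cpm in Hot (median 28.4). In Hot-Dry it had 23.7 to 77.1 cpm (median 40.8). It rose by 0.49 ± 0.08 (adjusted p = 9.8e-06, and 0.0033 with summed counts) in 11 of 12 families, with 40 of 43 Hot-Dry females above the Hot median. TC014032 rose by 0.47 ± 0.11 in all 12 families (adjusted p = 0.0037), but it did not pass with summed counts (adjusted p = 0.082). The 3 other members, TC001253, TC008606 and TC030633, differed by 0.08, 0.09 and 0.14 and did not pass the test.

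TC030046, annotated as a transporter of monovalent inorganic cations, was DE as well. Its levels were 52.8 to 144 cpm in Hot (median 76.8) and 73.5 to 211 cpm in Hot-Dry (median 106). The rise of 0.46 ± 0.08 was found in 11 families (adjusted p = 4.5e-05, and 0.0087 with summed counts). Each of these transporter genes overlapped widely between the conditions. Other DE genes annotated with ion transport fell. TC002347, also a transporter of monovalent inorganic cations, changed by -0.25 (adjusted p = 0.021). TC002069, of metal ion transport, changed by -0.97 (adjusted p = 0.0072) and the ion channel gene TC009170 by -0.50 (adjusted p = 0.022). With summed counts none of these falls passed (adjusted p = 0.12, 0.067 and 0.35).

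Among 24 genes of potassium ion transport, 18 were higher in Hot-Dry, but only TC011616 passed the test (51.3% of all genes were higher and 2.28% DE). Their median log2 fold change was 0.08. The study chose this list on Hot or Hot-Dry females, so that its direction here is not independent. TC011616 is annotated as an inward rectifier potassium channel, a pore that lets potassium into cells more easily than out. It had 14.8 to 1736 cpm in Hot (median 156) and 64.5 to 3010 cpm in Hot-Dry (median 424). Its log2 fold change was 1.09 ± 0.28 (adjusted p = 0.011, and 0.049 with summed counts), and all 12 families rose. Here the females that stood apart mattered. Without them the difference in TC011616 was 0.82 and no longer passed (adjusted p = 0.093), and it did not pass without family 293 or 638 either. TC012864, which has no function in the lists, also lost its call without these females, but not without any single family. Its median went from 13.5 cpm in Hot (2.17 to 192) to 47.6 cpm in Hot-Dry (7.39 to 380), a log2 fold change of 1.27 ± 0.31 (adjusted p = 0.0068), but without those females it was 0.88 (adjusted p = 0.11).

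Enzymes of the tricarboxylic acid cycle, which oxidizes carbon from food and feeds respiration, all lay above 0. Each of 11 genes was higher in Hot-Dry, 3 of 11 were DE (51.3% of all genes were higher and 2.28% DE), none passed with summed counts, and the median log2 fold change was 0.12. TC004962 had 117 to 225 cpm in Hot (median 175) and 159 to 289 cpm in Hot-Dry (median 200), and it rose by 0.27 ± 0.05 in 11 families (adjusted p = 0.00011, and 0.11 with summed counts). The list was chosen by the study on Hot or Hot-Dry females, so that its direction here is not independent. TC015617, a serine-type endopeptidase, rose in 12 families from a median of 8.47 cpm (1.21 to 25.9) to 19.1 cpm (3.04 to 53.9), with a log2 fold change of 1.05 ± 0.22 (adjusted p = 0.00087, and 0.0087 with summed counts). TC010076, annotated as a serine-type peptidase, rose by 0.30 ± 0.05 (adjusted p = 1.4e-05, and 0.015 with summed counts) in 10 families. Other DE genes annotated as peptidases went both ways. The serine-type endopeptidase TC004554 changed by -0.27 (adjusted p = 0.0036). TC011313 and TC014203 changed by -0.39 and -0.20 (adjusted p = 0.0082 and 0.0061), and TC009362, described below, fell too. The metallopeptidases TC004027 and TC015783 changed by 0.79 and 0.87 (adjusted p = 0.0057 and 0.038). With summed counts none of these passed (adjusted p = 0.053 or more). The class as a whole was not counted.

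TC000516 had the largest fall of the genes averaging 5 cpm or more. Hot females had 2.44 to 1275 cpm with a median of 195, and Hot-Dry females 0 to 546 cpm with a median of 6.92. In Hot-Dry 41 of 43 females lay below the Hot median, and 12 were below the lowest Hot female. The log2 fold change was -2.86 ± 0.43, a fall of 7.25-fold (adjusted p = 1.1e-06, and 0.0037 with summed counts), and all 12 families fell, with differences between -5.92 and -0.21. Spread in Hot-Dry was wide, with 76.3% of the cpm added over females coming from the 5 highest.

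TC000515, with the preceding identifier, had the highest Hot median of the 10 largest falls. It had 70.1 to 2417 cpm in Hot (median 749) and 13.2 to 1246 cpm in Hot-Dry (median 142), and 41 of 43 Hot-Dry females lay below the Hot median. Its log2 fold change was -1.80 ± 0.28 (adjusted p = 1.5e-06, and 0.017 with summed counts), with all 12 families lower by at least 0.95. TC000518 fell by 1.73 on the log2 scale, from a median of 2.84 cpm (0.136 to 16.9) to 0.744 cpm (0 to 7.28), in 11 families (adjusted p = 5.7e-05, and 0.049 with summed counts). Without the females that stood apart, the summed fit of TC000518 no longer passed (adjusted p = 0.064).

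TC000517, between them in number and named by the study as a pathogenesis-related protein, did not share this pattern. Its median was 1.53 cpm in Hot (0.121 to 458) and 1.02 cpm in Hot-Dry (0.104 to 25.7). The fitted log2 fold change was -2.24 ± 0.46 (adjusted p = 0.00057), but 4 of 12 families went up and the summed fit did not pass (adjusted p = 0.45). A single library carried it. Hot female 348-4 had 458 cpm, and no Hot female outside family 348 exceeded 39.7 cpm. Without family 348 the change was -0.32. The same female held 707 cpm of TC009362, a peptidase gene with no more than 44.2 cpm in Hot females of other families. Its log2 fold change of -1.99 ± 0.44 (adjusted p = 0.0026) became 0.35 without family 348, and it did not pass with summed counts (adjusted p = 0.97).

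TC010352 fell from a median of 61.1 cpm in Hot (0.425 to 354) to 6.25 cpm in Hot-Dry (0 to 125). This was a log2 fold change of -2.02 ± 0.37 (adjusted p = 7.9e-05, and 0.0033 with summed counts) in 11 of 12 families, and 40 of 43 Hot-Dry females lay below the Hot median. TC006455 was lower in every family, with medians of 10.1 cpm (0.168 to 46.6) and 1.55 cpm (0 to 26.5) and a log2 fold change of -1.83 ± 0.36 (adjusted p = 0.00042), though not with summed counts (adjusted p = 0.11). The lists give no function for either gene.

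Glycoside hydrolases, enzymes that cut the bonds between sugar units, went both ways. The list of enzymes hydrolyzing O-glycosyl compounds held 51 tested genes, with 4 up-regulated and 5 down-regulated (0.991% and 1.29% of all tested genes were). Of the 51, 37 were higher in Hot-Dry (51.3% of all genes were), and the median log2 fold change was 0.15. With summed counts 1 passed upward and 2 downward. The list joins genes the study chose in Dry with genes chosen on Hot or Hot-Dry females, so that its direction here is not independent. Its 6 members that the study listed as lowered in Dry females were all lower in Hot-Dry too. Of these 6, 4 were DE (2.28% of all genes were, and 1.29% downward), and their median was -0.68. In the fit used here 5 of the 6 were also DE downward from Control to Dry. Of the 98 genes DE between those conditions, 96 had the same sign at 37°C and 37.8% were DE there too. A shared direction was therefore general among such genes and not particular to this list. TC002466 had 0.407 to 110 cpm in Hot (median 27.0) and 0.730 to 51.0 cpm in Hot-Dry (median 5.65), with 42 of 43 Hot-Dry females below the Hot median. It changed by -1.96 ± 0.32 (adjusted p = 8.7e-06, and 0.041 with summed counts) in 11 families. Without the females that stood apart, the summed fit of TC002466 no longer passed.

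TC002295 was the most abundant of them, with a median of 190.5 cpm in Hot (23.2 to 1057) and 65.8 cpm in Hot-Dry (20.1 to 906). It changed by -1.23 ± 0.27 (adjusted p = 0.0016, and 0.15 with summed counts), lower in 11 families. TC002467 and TC010171 changed by -0.95 and -0.41, and neither passed with summed counts. The call was lost without family 1077 for TC002467 and without each of 7 families in turn for TC010171. The remaining members of the Dry list, TC016211 and TC016212, differed by -0.30 and -0.20 and did not pass. Outside the Dry list TC009636 fell by 0.50 on the log2 scale in all 12 families (adjusted p = 0.00044, and 0.011 with summed counts), and TC003990, annotated more broadly as acting on glycosyl bonds, fell by 1.67 from a median of 100.3 to 22.4 cpm (adjusted p = 0.00014) but did not pass with summed counts (adjusted p = 0.065).

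Other glycoside hydrolases rose. TC010048 went from a median of 5.83 cpm (0 to 48.8) to 13.3 cpm (0.640 to 52.0), a log2 fold change of 0.98 ± 0.26 in all 12 families (adjusted p = 0.016, and 0.048 with summed counts). TC016218, TC006700 and TC000571 rose by 0.60, 0.74 and 0.19, did not pass with summed counts and each lost the call without some of the families. TC006700 and TC000571 also lost it without the females that stood apart (adjusted p = 0.14 and 0.15). The call of TC010048 was lost without family 245, 638 or 710.

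A group of 8 falling genes varied together between sisters. Across the 88 females, after the mean of each family and condition was removed, TC000515, TC000516, TC000518, TC002295, TC002465, TC002466, TC002467 and TC003990 correlated in all 28 pairs, with Pearson's r of 0.546 to 0.827 (Spearman's rho 0.567 to 0.857). These genes were put together after their values were seen, and they share libraries and normalization, so the correlations are a description. Other falling genes were left out. Of these, TC000517 had r of -0.302 with TC000516 and 0.0165 with TC000518, and TC010352 had 0.357 and 0.638. The 8 genes of the group were all DE downward here, so a downward average follows largely from their choice. It was found in all 12 families, from -0.31 to -3.47 on the log2 scale.

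Larger fitted rises than that of TC007314 were found in TC006158 and TC006157, but few females carried them. TC006158 ranged from 0 to 70.5 cpm in Hot (median 0.105) and from 0 to 666 cpm in Hot-Dry (median 1.72), and TC006157 from 0 to 112 cpm (median 0.479) and from 0 to 931 cpm (median 4.35). Females listed at 0 counts of TC006158 numbered 19 in Hot and 9 in Hot-Dry. In TC006158, 76.6% of the cpm added over Hot-Dry females came from the 5 highest.

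**Figure D3:**
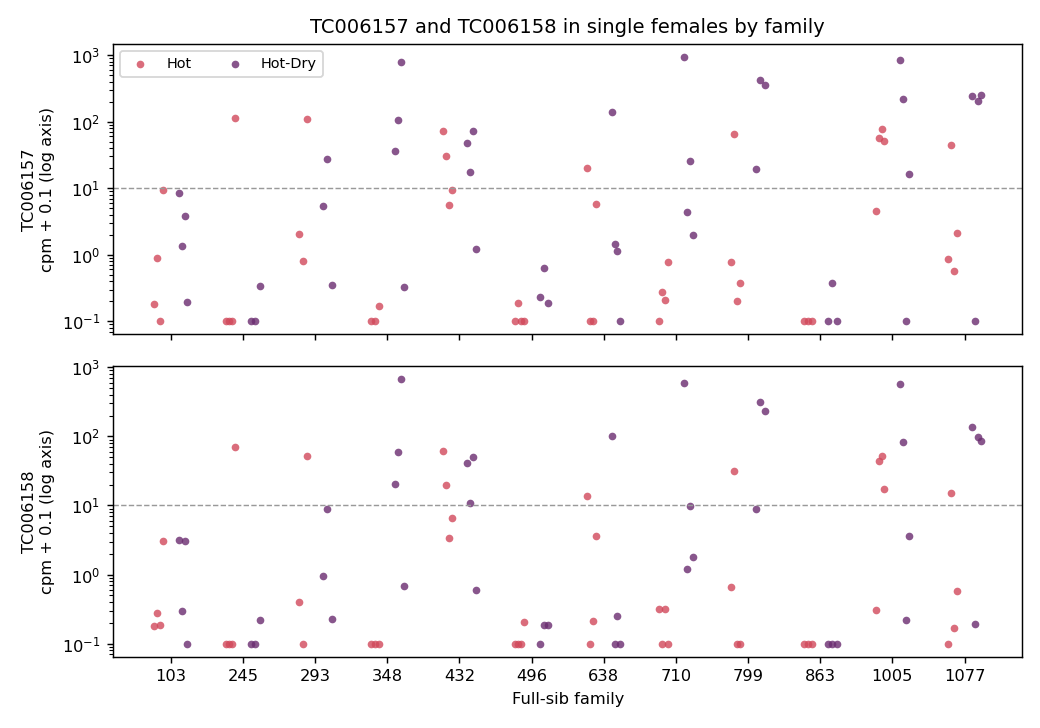
Levels of TC006157 and TC006158 in single Hot and Hot-Dry females by family, as cpm + 0.1 on a log axis, with a dashed line at 10 cpm. At TC006157, 19 of 43 Hot-Dry females and 10 of 45 Hot females reached 10 cpm, and both conditions hold many females near 0.

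The log2 fold changes were 3.04 ± 0.54 for TC006158 (adjusted p = 5.7e-05) and 2.89 ± 0.54 for TC006157 (adjusted p = 0.00016). With summed counts neither passed (adjusted p = 0.20 and 0.25), and 7 and 8 of 12 families rose. At a level of 10 cpm, chosen after the values were seen, TC006157 was reached by 19 of 43 Hot-Dry females from 8 families, 10 of 45 Hot females from 7 families, 3 of 48 Dry females and 0 of 47 Control females. At 33°C the fit on single females gave a change of 4.66 ± 1.18 for TC006158 (adjusted p = 0.021). There 2 Dry females reached 10 cpm and the Control and Dry medians were 0. For TC006157 the same fit gave 2.65 ± 0.81 (adjusted p = 0.10). Both genes rose and fell together, with an r of 0.967 (rho 0.939) across the 88 females around their family and condition means. Whether near-identical sequences shared reads is uncertain for this pair as well.

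The 56 reproduction genes that the study lists by process included no DE gene. By edgeR's quasi-likelihood test 9 of them had an unadjusted p under 0.05 (1630 of the 12113 tested genes did, and 2.28% were DE), none passed with summed counts, and their median log2 fold change was -0.02. The smallest adjusted p was that of Spookier (TC004159), an enzyme of ecdysteroid synthesis, which differed by -0.38 ± 0.12 (adjusted p = 0.069) and was lower in 11 of 12 families. Vg1 (TC013602) had a median of 91180 cpm in Hot (3396 to 147000) and 71630 cpm in Hot-Dry (296 to 152100), with a log2 fold change of -0.35 ± 0.18 (adjusted p = 0.35). Vg2 (TC010839) had 63830 cpm (1838 to 101600) and 46050 cpm (290.5 to 88630), a change of -0.40 ± 0.18 (adjusted p = 0.26). Vg2 was lower in 10 and Vg1 in 9 of 12 families.

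**Figure D4:**
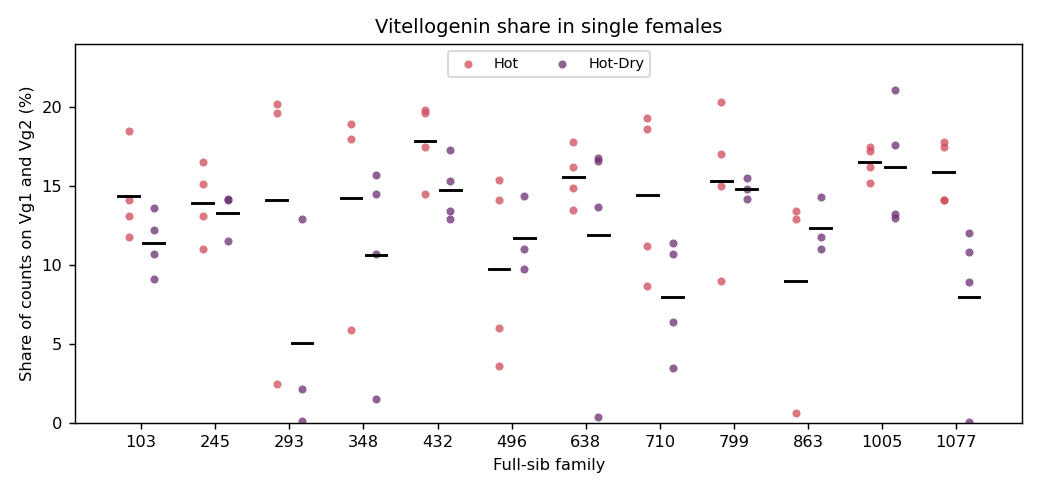
Share of all counts on Vg1 and Vg2 in single Hot and Hot-Dry females of the 12 families, in percent, with a black bar at each family mean. The Hot-Dry mean lay below the Hot mean in 10 of 12 families, and the lowest values came from Hot-Dry females of families 293, 638 and 1077.

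Together Vg1 and Vg2 took 0.620% to 20.3% of a Hot female's counts (median 15.1%) and 0.0756% to 21.1% of a Hot-Dry female's (median 12.9%). Averaged per family, the share was lower in Hot-Dry by 2.76 percentage points (SD of the family differences 3.79, n = 12), and 10 of 12 families were lower. An exact two-sided sign-flip permutation test over the families gave p = 0.029, where 0.00049 is the smallest p this design allows. Without the females that stood apart the difference was -2.01 percentage points with an exact p = 0.052. With the median of each family in place of its mean the difference was -3.71 percentage points (exact p = 0.0029). The p of the means also exceeded 0.05 without family 293, 348, 638, 710 or 1077, at 0.059 or less. The summed level of the 5 ovary genes Vasa, Piwi, Spindle E, Mago nashi and VgR had medians of 583 cpm in Hot (475 to 831.5) and 584 cpm in Hot-Dry (368.5 to 697), and the 3 females that stood apart had 368.5 to 580.3 cpm. None of these 5 genes passed the test. As vitellogenin took fewer counts in Hot-Dry, the DE genes were also counted with both vitellogenins left out before normalization, and all 44 named DE genes kept their call.

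Drought at 33°C, from Control to Dry, was set beside these changes. It involved other females of the same families. There were 98 DE genes (0.809%) between Dry and Control, 51 up-regulated (0.421%) and 47 down-regulated (0.388%), and 5 of the tested genes (0.0413%) passed with summed counts. Of the 276 genes DE at 37°C, 251 (90.9%) had the same sign at 33°C, where 63.0% of all tested genes did. DE at both temperatures were 37 genes, all in the same direction (19 up, 18 down), which is 13.4% of the genes DE at 37°C and 37.8% of those DE at 33°C. Across the 12113 genes the log2 fold changes correlated with r = 0.466 (Spearman's rho 0.336), a value across genes, which are not independent replicates.

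**Figure D5:**
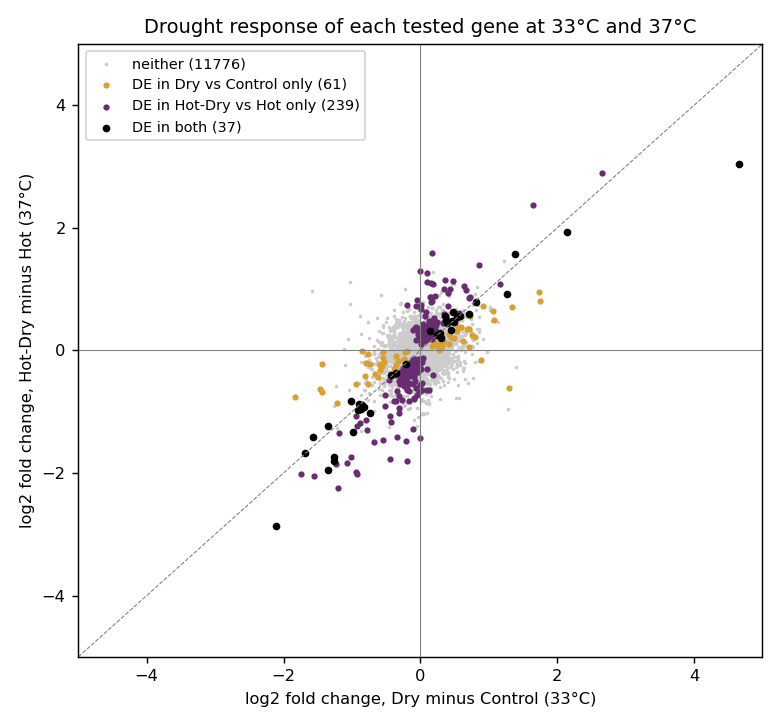
Log2 fold change of each tested gene with drought at 33°C (x axis, Dry minus Control) and at 37°C (y axis, Hot-Dry minus Hot), with genes DE in either or both comparisons coloured and a dashed line at equality. The 37 genes DE in both comparisons all lie at the lower left or the upper right.

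The genes DE at 37°C changed by a median of 0.42 without regard to sign, and by 0.17 at 33°C. Selection at 37°C favours large values there, and the reverse held for the 98 genes chosen at 33°C, of which 76 changed more at 33°C. The difference between the temperatures was therefore tested directly. The interaction of heat and drought passed for 1 gene (0.00826%). An unadjusted p under 0.05 was found for 524 genes without a block, 732 with the block for the 48 numbers, 809 with the block for the families and 356 with summed counts, where 5% of the tested genes make 606. The interaction passed for no gene with summed counts or with the block for the 48 numbers.

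That gene was TC009418. It had medians of 0.664 cpm in Hot (0 to 2.58) and 1.59 cpm in Hot-Dry (0.293 to 5.42), a rise of 1.29 ± 0.20 on the log2 scale in all 12 families (adjusted p = 1.1e-06, and 0.00044 with summed counts). At 33°C the medians were 1.03 cpm in Control and 1.07 cpm in Dry, a change of -0.01 ± 0.19. The interaction was 1.30 ± 0.27 (adjusted p = 0.047, and 0.42 with summed counts).

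Several genes DE at 37°C had a like change at 33°C. TC000516 fell by 2.11 ± 0.40 at 33°C (adjusted p = 0.00039), TC000515 by 1.26 ± 0.26 (adjusted p = 0.0025) and TC003990 by 1.68 ± 0.30 (adjusted p = 0.00015). TC002295 and TC002466 changed by -1.36 and -1.35, and the transporters TC000573 and TC014032 by 0.37 and 0.46, all DE there for single females. With summed counts 5 of all tested genes passed at 33°C, so not all of these calls hold with the vial as the unit. Among genes DE at 37°C that did not pass at 33°C, the fitted change there was 0.19 in TC011616, 0.09 in TC012864 and 0.48 in TC011661. In none of these 3 genes did the interaction pass (adjusted p = 0.98, 0.81 and 0.81).

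For the 276 DE genes, changes between conditions were of the order of the differences between sisters, and over all tested genes they were smaller. The SD of log2 cpm among females of 1 family and condition had a median of 0.316 in Hot and 0.326 in Hot-Dry over all tested genes, and it was larger in Hot-Dry for 53.5% of them. The change between conditions over all tested genes had a median of 0.0667 without regard to sign. Among the 276 DE genes the median SD was 0.421 in Hot and 0.409 in Hot-Dry, beside a median change of 0.42. In 166 of them the change exceeded the Hot SD. The alternatives were followed for 44 named DE genes, which do not include every DE gene described here. Of the 44, 7 kept their call in each of 19 other analyses and without each of the 12 families. For TC007312, which was not tested in all, the other analyses numbered 18. The 7 genes were TC000445, TC007312, TC011508, TC011661, TC009418, TC000515 and TC000516.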

How the data were processed

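Each library held the RNA of 1 whole female and was made with a Lexogen mRNA kit. The authors mapped reads with STAR 2.5 and counted them with featureCounts, per the labels and the study's methods, and deposited raw counts for 17078 genes with no normalization. The setting for strand and for reads with several matches is not given in the sources used here. All columns were assigned by their labels. Genes had to exceed 0.5 cpm in 5 or more females, which 12113 did, and were tested in R 4.3.3 with edgeR 4.0.16 (TMM, 1 mean per condition over the females of all 4 conditions, quasi-likelihood F test, Benjamini-Hochberg adjustment over all genes tested, DE at 0.05). The SE was taken as the absolute log2 fold change divided by the root of F, and log2 cpm used a prior count of 2. P-values over single females measure the spread between females and not between vials. The procedure was tested on simulated counts drawn for each female without a family or vial effect. That test therefore cannot show how likeness within vials affects the calls.

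Same-numbered Hot and Hot-Dry females came from the same families, and their deviations from the condition means correlated with a mean r of 0.225 (40 pairs), against 0.227 for sisters with other numbers and -0.0198 for other families. The number is therefore a pairing through the family, and within 1 family and condition r was 0.284.

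Named were the 10 largest rises and falls of DE genes averaging 5 cpm or more, the 10 smallest p-values, the 10 smallest p-values of the summed fit, DE members of lists, and 4 genes known from an earlier account, of which TC016395 was not DE. TC000518, TC030046 and TC010076 were added after their values were seen. So were the further ion transport and peptidase genes described beside TC030046 and TC010076. Of these additions only TC000518 and TC030046 are among the 44 named DE genes run through the alternatives. The members and lists were chosen with earlier results of these data known. Gene functions are the terms of the study's lists of enriched function terms. Its lists of enriched pathways and protein domains were not used, so a gene given here without a function may have one there. Lists for proteolysis, carbohydrate and lipid metabolism were held only in part and not counted. Besides the lists described, 2 of 38 chitin genes, 2 of 19 postsynaptic membrane genes, 0 of 8 viral capsid genes and 0 of 38 serine/threonine kinase genes were DE (2.28% of all genes were), and none of them passed with summed counts. Alternatives used limma 3.58.1 and DESeq2 1.42.0. Gene names, sequences and lists by description were not used here.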

Additional observations from a re-analysis of the deposited data

Results flagged for a closer look

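The response of TC009418 to drought differed between 37°C and 33°C, with an interaction of 1.30 on the log2 scale (adjusted p = 0.0471 in edgeR's quasi-likelihood test). The gene rose from Hot to Hot-Dry in 12 of 12 families and from Control to Dry in 7 of 12. With the 48 numbers as a block the adjusted p of the interaction was 0.10, and with counts summed per family and condition it was 0.42. Its median was 0.664 to 1.59 cpm in the conditions, where 3 counts make 0.345 cpm.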

How the results depend on the processing

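The count of 276 DE genes (120 up, 156 down) was within 1.5 times under relative log expression and upper-quartile factors, no filter on low counts, edgeR's filterByExpr, DESeq2, limma-voom, the likelihood ratio test, the robust setting, the Hot and Hot-Dry females alone, total count as a covariate and no vitellogenins. It moved to 437 (198 up, 239 down) with the replicate block, to 547 (246 up, 301 down) with family as a block, to 435 (185 up, 250 down) without libraries under 6000000 counts, of which 4 were Hot, and to 119 (49 up, 70 down) at an adjusted p of 0.01. With the vial as the unit it was 46 (25 up, 21 down) for summed counts with family as a block, 7 (5 up, 2 down) for summed counts without a block, 13 (10 up, 3 down) with limma-voom and a correlation within vials, estimated at 0.35, and 35 (20 up, 15 down) for summed counts with family as a block without the 3 Hot-Dry females, an alternative chosen after seeing the data like all that leave them out. Leaving out each family gave 154 to 339 DE genes (61 to 159 up, 93 to 210 down), with 154 without family 710 and 168 without family 638. The replicate block changed the call of 3 of the 44 named DE genes (TC004256, TC000517 and TC009362). With the vial as the unit more calls were lost, 25 of 44 for summed counts with family as a block, 37 for summed counts without a block, and 31 with 1 more reversed for limma-voom with a correlation. TC009362 reversed to 0.18 with DESeq2, 0.0745 with limma-voom, 0.34 with the replicate block, 0.0042 with limma-voom and a correlation within vials, and 0.35 without family 348 (range without each family -2.28 to 0.35). No other gene of the 44 reversed in the alternatives. DE genes described outside the 44, such as TC010076, were not followed through them.

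The interaction passed for 0 genes with relative log expression factors, limma-voom, limma-voom with a correlation, the replicate block, either fit of summed counts, total count as a covariate, an adjusted p of 0.01 and without the 3 Hot-Dry females in both fits. It passed for 2 with no filter, DESeq2, the likelihood ratio test and without small libraries. The vitellogenin difference ran from -3.31 to -2.18 percentage points without each family, with exact p from 0.0088 to 0.059, above 0.05 without 293, 348, 638, 710 or 1077, and was -2.01 (exact p = 0.052) without the 3 females and -3.71 (exact p = 0.0029) with family medians. The causes were not tested. Depth limits genes near 0.345 cpm, such as TC007312 and TC009418.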
